A study of Mus musculus with 24 samples.

Results

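Complexes II and III of the respiratory chain, the ATP synthase, cytochrome c and the electron transfer flavoprotein were followed through the development of the mouse diaphragm. The genes were chosen by name: Sdha to Sdhd, every symbol starting with Uqcr or Atp5, and Cyc1, Cycs, Etfa, Etfb and Etfdh. This gave 34 of the 19351 genes measured, namely 4 of complex II, 9 of complex III, 1 for cytochrome c, 3 of the electron transfer flavoprotein system and 17 of the ATP synthase. All 34 protein-coding genes that RefSeq lists under these names were on the array, so no member was lost and no filter on low values was applied. The study covered normal C57BL/6J embryos and the labels name no mutation or treatment. It compared the pleuroperitoneal folds, the paired tissue ridges from which the diaphragm forms, at E11.5 and E12.5 with the muscularised diaphragm at E16.5. Each stage had 8 arrays, of laser-captured tissue from transverse sections at the earlier stages and from sagittal sections at E16.5. The labels do not tie arrays to embryos, so the p-values measure the spread between these samples, which may be technical.

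These complexes sit in the inner mitochondrial membrane. Complex II oxidises the succinate of the citric acid cycle, and the electron transfer flavoprotein collects electrons from fatty acid and amino acid breakdown. Both pass them to coenzyme Q, complex III carries them on to cytochrome c, and the proton gradient built along the chain drives the ATP synthase. Striated muscle that works steadily, as the diaphragm does from birth on, is rich in these proteins.

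Values are deposited log2 intensities, so a difference of 1 is a doubling, and levels of different genes cannot be ranked because each probe set responds in its own way. Members read well above the dim end of the arrays: none of the 34 fell below an array's lower quartile over genes in any array, and 2 reached the 20 brightest genes of any array. Changes were tested with limma across all genes, with Benjamini-Hochberg adjustment and a threshold of 0.05.

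Some arrays stood apart in ways the labels do not explain. At E16.5 the mean of the 34 members was 12.14 to 12.33 in replicates 1 to 4 and 11.78 to 11.94 in replicates 5 to 8. At E12.5, replicate 3 had the highest mean of the 15 skeletal muscle markers, 11.58, and replicate 2 the lowest, 8.38. Replicate 2 also had the highest mean of the 10 hepatocyte markers at that stage, 11.87 against 7.60 in the lowest array. Counts are therefore given with and without these arrays below.

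From E11.5 to E12.5, no member passed the test in either direction, while 0.331% of all genes were called higher and 0.0568% lower. At an unadjusted limma p under 0.05, 6 members were higher and 0 lower, and 6.27% of all genes were higher. Over both directions, 2789 of all genes measured had such a p. Of the 34 changes 29 were positive, against 42.2% of all genes, with a member median of 0.11 and a range of -0.07 to 0.34. The all-gene median was -0.03, but it differed with brightness. Among the 11912 genes with a mean below 8 over the 24 arrays, where no member lies, it was -0.07. It was 0.05 for genes from 8 to 10, 0.06 from 10 to 11, 0.06 from 11 to 12 and 0.04 from 12 up. Genes as bright as the members thus also shifted upward at the median, by less than the members. The share of positive changes was not counted by brightness. The mean of the 34 members was 11.15 to 11.29 across E11.5 arrays and 11.23 to 11.46 across E12.5 arrays, so the stages overlapped. Leaving out E12.5 replicates 2 and 3 also gave 0 calls.

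The 5 members with the smallest p at this early step belong to complex III, the ATP synthase and the electron transfer flavoprotein. Uqcr10, a small supernumerary subunit of complex III, measured 10.32 at the lowest, 10.55 at the median and 11.09 at the highest of the E11.5 arrays, and 10.61, 10.98 and 11.18 at E12.5. Its change was 0.32 ± 0.10 (SE), with a limma adjusted p of 0.17. The ranges overlapped. Atp5g3, one of the genes for subunit c of the ATP synthase, read 11.98, 12.19 and 12.34 at E11.5 and 12.25, 12.38 and 12.65 at E12.5, a change of 0.25 ± 0.09 (adjusted p = 0.21 with limma). Uqcrfs1 encodes the Rieske iron-sulfur protein of complex III and read 9.65, 9.78 and 10.12, then 9.79, 10.07 and 10.35. Neither gene separated the stages. Atp5mpl, a small membrane subunit of the ATP synthase, measured 12.36, 12.60 and 12.90 at E11.5 and 12.65, 12.76 and 12.87 at E12.5. Etfa, the alpha subunit of the electron transfer flavoprotein, measured 10.34, 10.54 and 10.67, then 10.48, 10.69 and 11.00. In all 5 genes the arrays of both stages overlapped.

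From E12.5 to E16.5, all 34 members rose, where 11.49% of all genes were called higher and 15.60% lower. The member median was 0.72, a 1.64-fold change, and the all-gene median was -0.02. The smallest rise was that of Atp5j at 0.24 and the largest that of Atp5g1 at 1.34, although a second Atp5g1 probe set rose by 0.57. Rises of 2-fold or more were seen in 7 members, and 5 members changed by less than 1.3-fold. In 27 of the 34, every E16.5 array lay above every E12.5 array, which held for 4.69% of all genes. The 7 members whose stages overlapped were Sdhc, Sdhd, Uqcrq, Atp5a1, Atp5pb, Atp5g2 and Atp5j. Without E16.5 replicates 1 to 4, 30 members were called higher and the median was 0.55, and the 4 lost were Sdhc, Uqcrq, Atp5j and Atp5k. Without replicates 5 to 8 the count was 34 and the median 0.86, and leaving out E12.5 replicates 2 and 3 gave 34 calls and a median of 0.76.

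**Figure D1:**
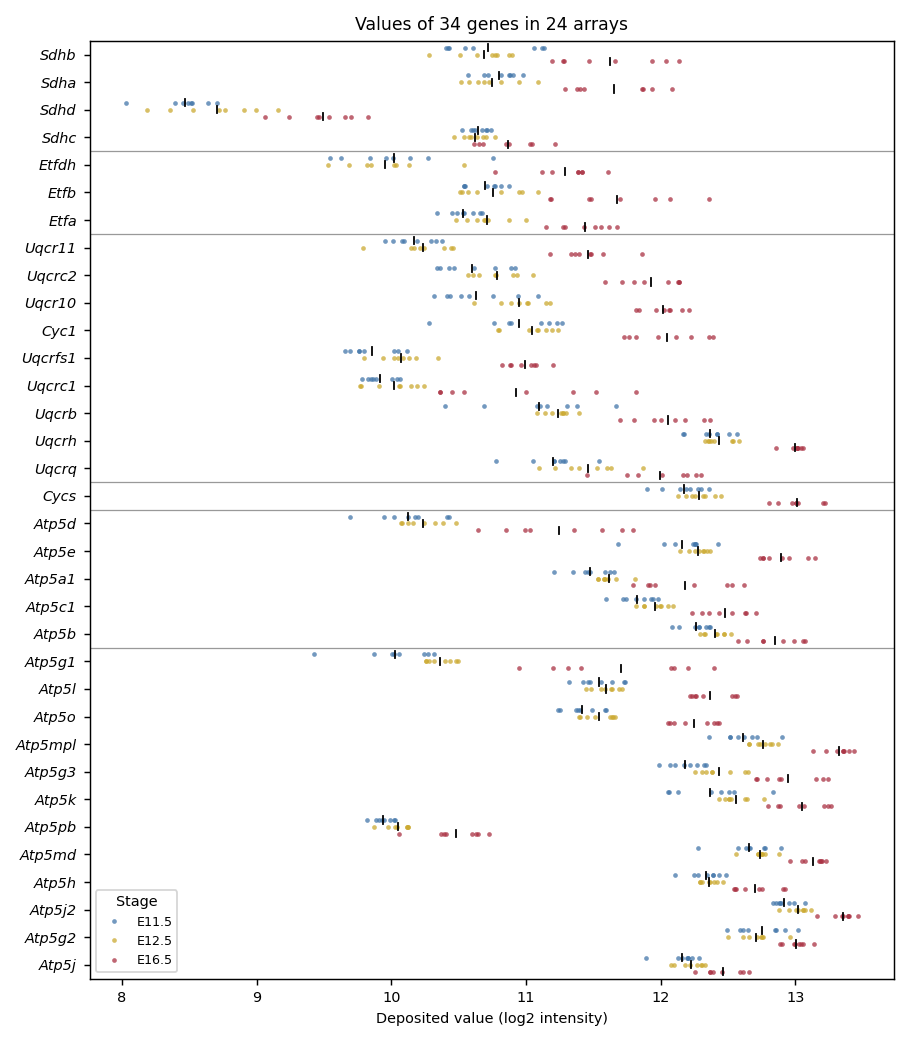
Log2 intensity (horizontal axis) of each of the 34 genes in all 24 arrays: points are arrays, coloured by stage, black ticks are stage means, and grey lines separate, from the top, complex II, the electron transfer flavoprotein system, complex III, cytochrome c, the F1 part of the ATP synthase and its stalk and membrane part. The E16.5 points lie wholly to the right of the E12.5 points in 27 genes, and the E11.5 and E12.5 points overlap in all 34.

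In complex II, succinate dehydrogenase, all 4 subunits rose between E12.5 and E16.5, with a median of 0.85, but by unequal amounts. Sdhb, the iron-sulfur subunit, measured 10.41, 10.58 and 11.13 (lowest, median, highest) in E11.5 arrays, 10.28, 10.76 and 10.90 in those of E12.5, and 11.19, 11.56 and 12.14 in those of E16.5. The E16.5 arrays stood clear of both earlier stages, and the rise over E12.5 was 0.93 ± 0.15 (SE; limma adjusted p = 2.7e-05). Sdha, the flavoprotein that binds succinate, read 10.57, 10.85 and 10.97, then 10.52, 10.71 and 11.09, then 11.29, 11.64 and 12.09, also without overlap, and rose by 0.91 ± 0.11. The membrane anchors differed in size of change. Sdhd rose by 0.79 ± 0.13 from a median of 8.74 to 9.50, with overlapping arrays. Sdhc rose by 0.25 ± 0.08 (limma adjusted p = 0.014), from 10.47 to 10.77 across E12.5 arrays to 10.62 to 11.21 across E16.5 arrays. Its call was lost without E16.5 replicates 1 to 4, where the change was 0.08 (adjusted p = 0.51), and after a further quantile normalization, where it was 0.17 (adjusted p = 0.071).

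The promoter of Sdha is shown because it held the most matches to the motif of NRF1, a transcription factor known for its sites in front of respiratory chain genes. The 250 bases before the RefSeq start site (GRCm38.p6, minus strand, 5′ to 3′) are given with the 3 matches to GCGCANGCG, on either strand, in capitals.
Sdha upstream, chr13:74350241-74350490: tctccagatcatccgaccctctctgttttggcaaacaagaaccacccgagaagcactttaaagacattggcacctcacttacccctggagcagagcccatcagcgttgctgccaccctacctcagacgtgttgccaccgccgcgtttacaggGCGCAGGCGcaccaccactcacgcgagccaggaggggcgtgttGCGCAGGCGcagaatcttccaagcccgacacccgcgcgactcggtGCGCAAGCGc

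The electron transfer flavoprotein system rose in all 3 of its genes, with a median of 0.92. Etfdh, the membrane enzyme that hands the electrons to coenzyme Q, measured 9.54, 9.98 and 10.75 in E11.5 arrays, 9.53, 9.93 and 10.54 in those of E12.5, and 10.77, 11.39 and 11.61 in those of E16.5. Its lowest E16.5 array lay just above the highest array of each earlier stage, and the rise over E12.5 was 1.34 ± 0.15 (limma adjusted p = 2.4e-07). Etfb, the beta subunit, rose by 0.92 ± 0.14 from a median of 10.73 to 11.59. Etfa rose by 0.73 ± 0.08, to 11.15 at the lowest, 11.47 at the median and 11.68 at the highest E16.5 array. Both subunits separated E16.5 from E12.5 without overlap. Of the 10 acyl-CoA and related dehydrogenases that feed this flavoprotein, 6 rose and 1 fell, against 11.49% and 15.60% of all genes. Acadl, Acadm and Acadvl, which act on long, medium and very long chain fatty acids, rose by 2.01 ± 0.20, 1.83 ± 0.22 and 1.31 ± 0.17. Sardh, which oxidises sarcosine, fell by 0.29 ± 0.09 on the log2 scale (limma adjusted p = 0.014).

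All 9 complex III genes rose from E12.5 to E16.5, with a median of 0.92. The largest changes were those of Uqcr11, Uqcrc2 and Uqcr10. Uqcr11, a small supernumerary subunit, measured 9.95, 10.14 and 10.38 in E11.5 arrays, 9.79, 10.23 and 10.46 in those of E12.5, and 11.18, 11.44 and 11.86 in those of E16.5. No E16.5 array came near the earlier ranges, and the rise was 1.23 ± 0.10 (limma adjusted p = 4.5e-10). Uqcrc2, a core protein, read 10.34, 10.54 and 10.92, then 10.57, 10.78 and 11.05, then 11.59, 11.97 and 12.14, and rose by 1.15 ± 0.10. Uqcr10 reached 11.82, 12.04 and 12.21 at E16.5, a rise of 1.07 ± 0.10 over E12.5. Both were clear of the earlier arrays.

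Of the subunits that carry electrons, Cyc1, cytochrome c1, measured 10.28, 11.00 and 11.27 in E11.5 arrays, 10.79, 11.09 and 11.23 in those of E12.5, and 11.73, 12.05 and 12.39 in those of E16.5. It rose by 1.002 ± 0.13 (limma adjusted p = 1.0e-06), and its E16.5 arrays did not overlap the earlier ones. Uqcrfs1 rose by 0.92 ± 0.08, to 10.83 at the lowest and 11.20 at the highest E16.5 array. Uqcrc1, the other core protein, rose by 0.91 ± 0.17 with the widest spread of the complex: 10.36 to 10.54 in E16.5 replicates 5 to 8 and 11.00 to 11.82 in replicates 1 to 4. Even its lower set of arrays lay above the highest E12.5 array, 10.24. Uqcrb rose by 0.81 ± 0.13, Uqcrh, the hinge protein, by 0.57 ± 0.06, and Uqcrq by 0.54 ± 0.12. Uqcrq overlapped between stages, with 11.10 to 11.87 at E12.5 and 11.46 to 12.30 at E16.5, and its call was lost without E16.5 replicates 1 to 4 (0.31, limma adjusted p = 0.15).

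Cycs, the soluble carrier cytochrome c, measured 11.90, 12.20 and 12.36 in E11.5 arrays, 12.13, 12.28 and 12.44 in those of E12.5, and 12.81, 13.00 and 13.22 in those of E16.5. The rise over E12.5 was 0.73 ± 0.07 (limma adjusted p = 2.6e-08), without overlap. Among 6 genes for heme attachment and cytochrome c or coenzyme Q partners, 2 rose, where 11.49% of all genes were called higher. Coq10a rose by 1.74 ± 0.30 and Endog, a mitochondrial nuclease, by 0.46 ± 0.14.

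**Figure D2:**
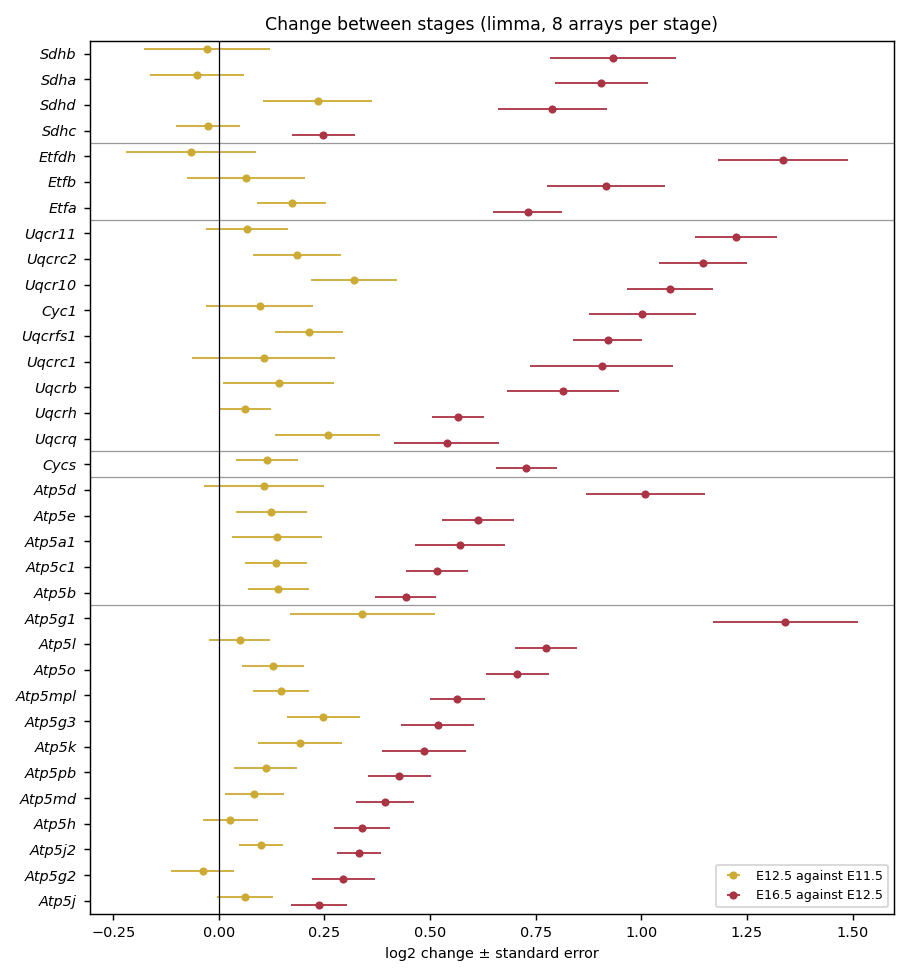
log2 change ± standard error (horizontal axis) of each of the 34 genes from E11.5 to E12.5 and from E12.5 to E16.5, by limma with 8 arrays per stage; grey lines separate the groups in the same order as in the plot of values. The later changes all lie to the right of 0, from 0.24 to 1.34, while the earlier ones lie between -0.07 and 0.34.

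All 17 ATP synthase genes rose from E12.5 to E16.5, with a median of 0.52. The 5 genes of F1, the catalytic head that faces the matrix, had a median of 0.57. Atp5d, its delta subunit, measured 9.70, 10.15 and 10.43 in E11.5 arrays, 10.08, 10.20 and 10.48 in those of E12.5, and 10.64, 11.19 and 11.79 in those of E16.5. It rose by 1.01 ± 0.14 (limma adjusted p = 4.6e-06), without overlap. Atp5e, the epsilon subunit, rose by 0.61 ± 0.08 and Atp5c1, the gamma subunit of the rotating shaft, by 0.52 ± 0.07. The catalytic beta subunit, Atp5b, read 12.30, 12.41 and 12.52 at E12.5 and 12.58, 12.83 and 13.07 at E16.5, a rise of 0.44 ± 0.07. Its partner alpha subunit, Atp5a1, rose by 0.57 ± 0.11, with arrays that overlapped: 11.54 to 11.81 at E12.5 and 11.79 to 12.62 at E16.5.

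The 12 genes of the stalk and the membrane part had a median rise of 0.46. Atp5l and Atp5k encode subunits g and e, small membrane proteins at the interface of ATP synthase dimers, and rose by 0.77 ± 0.07 and 0.49 ± 0.10. Atp5o, the subunit that ties the stalk to the head, rose by 0.71 ± 0.07. Atp5mpl rose by 0.56 ± 0.07, to 13.13 at the lowest and 13.44 at the highest E16.5 array. The stator subunits Atp5pb, Atp5h and Atp5j (b, d and F6) rose by 0.43 ± 0.07, 0.34 ± 0.07 and 0.24 ± 0.07. Atp5md and Atp5j2, further small membrane subunits, rose by 0.39 ± 0.07 and 0.33 ± 0.05. The calls of Atp5j and Atp5k were lost without E16.5 replicates 1 to 4, with changes of 0.14 (limma adjusted p = 0.25) and 0.33 (limma adjusted p = 0.055).

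Rises were compared across levels of brightness. The 13 members with a mean of 12 or more over the 24 arrays, 11 of them ATP synthase genes, had a median rise of 0.49, and the 11 members between 11 and 12 and the 9 between 10 and 11 had medians of 0.91 and 0.92. The 1 member between 8 and 10, Sdhd, rose by 0.79. The part of brightness in the size of the ATP synthase changes was not tested. Of all 218 genes as bright as 12 or more, 19.3% were called higher and 39.4% lower in this comparison.

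The subunit c ring of the ATP synthase is encoded by 3 genes, Atp5g1, Atp5g2 and Atp5g3 (also named Atp5mc1, Atp5mc2 and Atp5mc3), whose products yield the same mature protein. Atp5g1 measured 9.43, 10.04 and 10.31 in E11.5 arrays, 10.26, 10.36 and 10.49 in those of E12.5, and 10.95, 11.74 and 12.40 in those of E16.5. It rose by 1.34 ± 0.17 over E12.5 (limma adjusted p = 1.2e-06), a 2.53-fold change without overlap. Atp5g3 reached 12.71, 12.89 and 13.25 at E16.5 and rose by 0.52 ± 0.09, also without overlap. Atp5g2 measured 12.495, 12.75 and 13.02 in E11.5 arrays, 12.498, 12.73 and 12.96 in those of E12.5, and 12.89, 13.01 and 13.14 in those of E16.5. Its rise of 0.29 ± 0.07 (limma adjusted p = 0.0038) left the stages overlapping.

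The difference between these genes within each array was compared between stages by a two-sided exact permutation test, with 9 tests adjusted together. From E12.5 to E16.5, Atp5g1 gained 1.05 ± 0.20 (SE) on Atp5g2 and 0.82 ± 0.13 on Atp5g3, each with an adjusted exact p of 0.00028. The unadjusted 0.000155 is the smallest this design allows. These gains were larger in E16.5 replicates 1 to 4 than in 5 to 8. The means of these sets were 12.19 and 11.22 for Atp5g1, 12.99 and 13.02 for Atp5g2, and 13.12 and 12.78 for Atp5g3. From E11.5 to E12.5, the difference between Atp5g1 and Atp5g2 also grew, by 0.38 ± 0.08 (adjusted exact p = 0.00028), and that between Atp5g1 and Atp5g3 changed by 0.09 ± 0.09 (adjusted exact p = 0.33). Atp5g2 lost 0.29 ± 0.06 against Atp5g3 at the early step and 0.22 ± 0.09 at the later one (adjusted exact p = 0.0010 and 0.027). The later of these calls was lost without E16.5 replicates 1 to 4, where the change was -0.04 (adjusted exact p = 0.56).

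These later gains rest on the probe set that stands for Atp5g1. Its second probe set averaged 8.48, 8.83 and 9.40 at the 3 stages and rose by 0.57 from E12.5 to E16.5, near the 0.52 of Atp5g3. With the second-brightest probe set of Atp5g1 and Atp5g2, an alternative chosen after these values were seen, Atp5g1 gained 0.17 on Atp5g2 (adjusted exact p = 0.30) and 0.05 on Atp5g3 (adjusted exact p = 0.71), so the call of a later gain ended. The later change of Atp5g2 against Atp5g3 was then -0.12 (adjusted exact p = 0.15). Against E11.5 the E16.5 gain on Atp5g3 was 0.92 with the brightest sets and 0.15 with these (adjusted exact p = 0.17). The early gain on Atp5g2 was 0.37 with these probe sets (adjusted exact p = 0.011). Atp5g2 has 2 further probe sets, which changed by 0.40 and 0.02 from E12.5 to E16.5. By its number, only the set at 0.02 falls in the place of the gene's chromosome, as set out below. The tests above did not use that set. Where on the transcripts each probe set lies was not given in the sources used here.

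**Figure D3:**
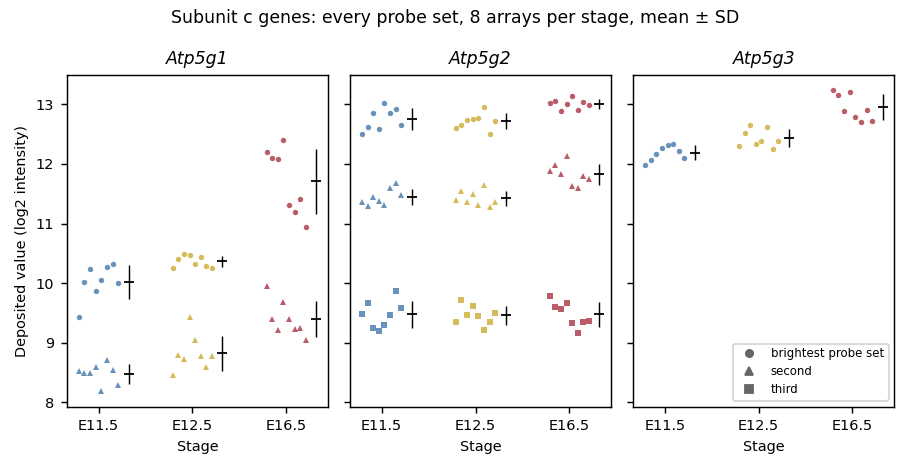
Log2 intensity (vertical axis) of every probe set of the 3 subunit c genes at each stage, 1 point per array, with the mean ± SD in black beside each cluster of 8. The brightest Atp5g1 probe set climbs from a mean of 10.37 to 11.71 between E12.5 and E16.5 and splits into 12.08 to 12.40 in replicates 1 to 4 and 10.95 to 11.41 in replicates 5 to 8, and its second probe set climbs from 8.83 to 9.40.

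The promoters of the 3 subunit c genes are shown because their transcripts serve 1 protein and changed by different amounts. Each is the 250 bases before a RefSeq start site (GRCm38.p6, minus strand, 5′ to 3′), with matches to the motifs of NRF1 (GCGCANGCG) and of the estrogen-related receptors (AAGGTCA), on either strand, in capitals. The stretch of Atp5g3 lies wholly inside its RefSeq gene, which reaches 73912464, so the bases before that outer end were not searched. The stretch of Atp5g1 overlaps its gene, which reaches 96075694.
Atp5g1 upstream, chr11:96075632-96075881: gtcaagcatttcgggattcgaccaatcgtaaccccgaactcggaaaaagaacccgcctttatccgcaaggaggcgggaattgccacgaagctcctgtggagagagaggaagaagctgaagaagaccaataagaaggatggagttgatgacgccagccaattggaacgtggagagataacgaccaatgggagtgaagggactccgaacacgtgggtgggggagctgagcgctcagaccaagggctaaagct
Atp5g2 upstream, chr15:102671048-102671297: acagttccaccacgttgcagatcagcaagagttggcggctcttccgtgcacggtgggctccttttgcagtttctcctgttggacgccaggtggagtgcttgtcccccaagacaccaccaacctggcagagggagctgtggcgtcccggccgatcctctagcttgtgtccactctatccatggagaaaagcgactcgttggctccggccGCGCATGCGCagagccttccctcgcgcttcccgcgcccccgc
Atp5g3 upstream, chr2:73911327-73911576: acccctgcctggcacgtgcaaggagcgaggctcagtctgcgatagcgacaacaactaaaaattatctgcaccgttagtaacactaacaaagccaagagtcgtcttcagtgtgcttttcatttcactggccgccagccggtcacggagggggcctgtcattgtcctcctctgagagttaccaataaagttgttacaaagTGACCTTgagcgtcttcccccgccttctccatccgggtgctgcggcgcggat
The stretch before Atp5g1 held no match to any of the 4 motifs searched, that before Atp5g2 held 1 palindromic NRF1 match, and that before Atp5g3 held 1 match for the estrogen-related receptors. Atp5g3 had a further NRF1 match within the 50 bases after the start, which are not printed.

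Over the whole window of 250 bases before to 50 after the start, the table of RefSeq promoters used here held 27 of the 34 members. GCGCANGCG was present for 14 of the 27 (51.9%), against 7.03% of all 27025 genes in the table and 10.6% of the 15389 that were on the array. CCGGAAG, the motif of GABP, was present for 10 members (37.0%), against 9.93% of all genes and 13.7% of those on the array. AAGGTCA was present for 5 (18.5%, against 5.38% and 4.49%) and AAGATGGC, the motif of YY1, for 3 (11.1%, against 3.19% and 3.79%). Members with several listed starts, Atp5c1, Atp5d and Atp5j, were counted when any of their starts had a match. The 14 members with an NRF1 match had a median rise of 0.75 from E12.5 to E16.5, the 13 with a promoter and no such match 0.61, and the 7 for which no promoter was matched 0.57. Those ranges overlapped almost wholly: 0.29 to 1.34 with a match and 0.24 to 1.34 without.

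Several probe sets were available for 8 members, and their 16 further probe sets changed by a median of 0.67 from E12.5 to E16.5, 15 of them upward. For Cycs the 2 others changed by 1.24 and 1.33, against 0.73 for the one used. The probe set at 1.33 started from a dim signal. It averaged 6.02 at E11.5 and 6.29 at E12.5, below the lowest array lower quartile over genes, 6.40. Atp5md had others at 0.30 and 1.02 against 0.39. Atp5l had 4 others between 0.13 and 1.09 against 0.77. For Uqcr11 and Uqcrb all probe sets lay close together, at 1.23 and 1.37 and at 0.64 to 0.81. The one negative value, -0.18 for a probe set of Atp5h, came from a signal below the lower quartile in all 8 E16.5 arrays. RefSeq lists 11 pseudogenes under these names, and which probe sets also read such copies was not given in the sources used here. Among members with 1 probe set, probe set numbers ran in the alphabetical order of the chromosomes. The sets used for Cycs, Atp5l, Atp5md and Atp5g2 fell outside the place of their gene's chromosome in that order. Other sets of these genes fell within it and changed by 1.33, 1.09, 1.02 and 0.02. Those of Cycs, Atp5md and Atp5g2 were not tested alone. With the second-brightest probe set in place of the first, 34 members were called higher, with a median of 0.66.

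Set against E11.5, all 34 members were higher at E16.5 (13.85% of all genes were called higher and 19.63% lower), with a median of 0.83 and a range of 0.22 (Sdhc) to 1.68 (Atp5g1). This comparison shares the E16.5 arrays with the previous one. A change of 2-fold or more was found in 10 members, and 29 had every E16.5 array above every E11.5 array, against 5.22% of all genes. Atp5g1 was 3.20-fold higher, Uqcr10 2.62-fold, Uqcrc2 2.52-fold and Uqcr11 2.45-fold. Complex III had a median of 1.099, the electron transfer flavoprotein system 0.98, complex II 0.88 and the ATP synthase 0.68. The call of Sdhc (adjusted p = 0.025 with limma) was lost without E16.5 replicate 1, 2 or 4, each left out in turn, with changes of 0.17, 0.20 and 0.20. After a further quantile normalization Sdhc was at 0.11 and Atp5g2 at 0.15 (limma adjusted p = 0.23 and 0.12), and without E16.5 replicates 1 to 4 the calls of Sdhc, Atp5g2 and Atp5j were lost (limma adjusted p = 0.59, 0.054 and 0.063). The call of Atp5g2 was also lost without E16.5 replicates 5 to 8 (limma adjusted p = 0.068), and that of Sdhc with E11.5 and E16.5 fitted alone (limma adjusted p = 0.056).

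Within E16.5 the members differed between these sets of arrays. By the mean of each set, 32 of 34 were higher in replicates 1 to 4 than in 5 to 8, and in 21 all of replicates 1 to 4 lay above all of 5 to 8, as in 6.43% of all genes. The median difference was 0.31. Atp5md was at the low end with -0.07, and Atp5g1 and Uqcrc1 at the high end with 0.98 and 0.996. The split was not particular to the members. Between these sets, list means differed by 0.35 for the members, 0.42 for complex I subunits and 0.51 for the citric acid cycle. For cytochrome oxidase subunits the difference was 0.28 and for skeletal muscle markers 0.33. Replicate 4 was the highest E16.5 array for 19 members and replicate 8 the lowest for 21. In replicates 5 to 8 alone, 27 members still had all their values above all E12.5 arrays. The labels do not explain the split, and it is described without a test.

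Markers of muscle and of other tissues moved with the stages and with these arrays. The counts below are for E12.5 to E16.5, where 11.49% of all genes were called higher and 15.60% lower. The 15 skeletal muscle markers, 13 of which rose from E12.5 to E16.5 and 1 of which, Myod1, fell, averaged 8.19 to 9.47 at E11.5, 8.38 to 11.58 at E12.5, 12.30 to 12.53 in E16.5 replicates 5 to 8 and 12.65 to 12.85 in replicates 1 to 4. All 10 hepatocyte markers rose as well, and their mean was 6.60 to 6.97, 7.60 to 11.87 and 9.55 to 11.70 at the 3 stages. At E11.5, 6 of those 10 were below the lower quartile in most arrays, Alb and Afp among them. The 9 cell cycle genes measured all fell, from a mean of 10.54 to 10.85 at E12.5 to 9.62 to 9.83 in E16.5 replicates 1 to 4 and 10.05 to 10.30 in replicates 5 to 8. Of the 10 heart markers 3 rose, Myl2, Myl3 and Myh6, of which Myl2 and Myl3 are also made by slow skeletal fibres, and the 10-gene mean was 8.39 to 9.09 at E16.5. Red blood cell markers fell in 3 of 8 genes, the embryonic globins Hbb-y, Hbb-bh1 and Hba-x. Of the other lists, endothelial markers rose in 7 of 10 genes, macrophage markers in 2 of 10 and lung epithelium markers in 2 of 10, Sftpc by 4.80 ± 0.48. Mesothelial markers rose in 3 and fell in 2 of 10, those of fold mesenchyme rose in 1 and fell in 6 of 10, and neuronal ones fell in 3 of 9. The sets of E16.5 arrays also differed in other markers. The endothelial mean was 8.90 to 9.20 in replicates 1 to 4 and 8.28 to 8.55 in replicates 5 to 8. The red blood cell mean was 7.58 to 8.17 and 8.30 to 8.94. The part of these tissues in the rise of the members was not tested, and in whole tissue more cells of a type and more RNA per cell cannot be told apart.

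The E12.5 arrays set these markers apart from each other. Replicate 3, with muscle markers at 11.58, had a member mean of 11.45, and replicate 2, with the least muscle and the most hepatocyte signal, had 11.46. Of the 34 members, 15 had their highest E12.5 value in replicate 3 and 11 in replicate 2. Both means remained below the lowest E16.5 array, 11.78.

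**Figure D4:**
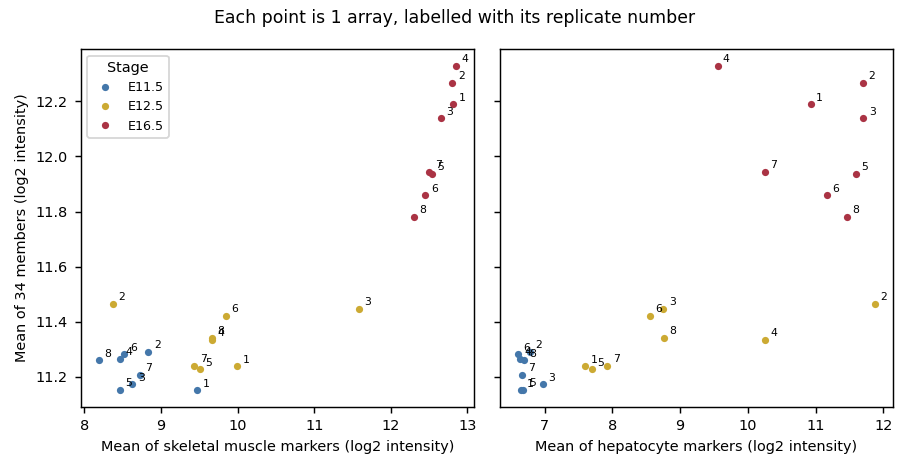
Mean log2 intensity of the 34 members (vertical axis) against the mean of 15 skeletal muscle markers (left) and of 10 hepatocyte markers (right), with 1 point per array, coloured by stage and labelled with its replicate number. All E16.5 arrays lie at 11.78 or higher on the vertical axis, and E12.5 replicates 2 and 3 sit at the top of their stage, at opposite ends of the muscle axis.

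Genes around these complexes were taken from lists named by role. Of all genes, 11.49% were called higher from E12.5 to E16.5 and 15.60% lower. Of 34 complex I subunits measured, 33 rose from E12.5 to E16.5 with a median of 0.72, led by Ndufb10 at 1.28 ± 0.16, Ndufs1 at 1.14 ± 0.13 and Ndufa6 at 1.14 ± 0.09. Of 15 cytochrome oxidase subunits 13 rose with a median of 0.41. The largest of the latter were the muscle forms Cox8b, Cox7a1 and Cox6a2, at 5.10 ± 0.34, 4.50 ± 0.29 and 3.25 ± 0.21. In the citric acid cycle 12 of 13 genes rose, led by Idh3a at 2.11 ± 0.26, Ogdh at 1.45 ± 0.19 and Sucla2, a subunit of the enzyme that makes succinate, at 1.37 ± 0.09. Coenzyme Q synthesis had 5 of 10 genes higher, with Coq8a at 2.04 ± 0.20, Coq9 at 1.49 ± 0.15 and Coq5 at 1.26 ± 0.20. Of 9 genes for ADP/ATP and phosphate carriers, outer membrane channels and mitochondrial creatine kinases, 7 rose. Ckmt2, the mitochondrial creatine kinase of striated muscle, rose by 4.47 ± 0.32, Vdac1, an outer membrane channel, by 0.91 ± 0.17, and Slc25a4, the muscle and heart ADP/ATP carrier, by 0.90 ± 0.08.

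Assembly factors were counted by complex, in the same comparison, where 11.49% of all genes were called higher and 15.60% lower. Sdhaf4 was the one of 4 complex II factors that rose, by 1.099 ± 0.32 (limma adjusted p = 0.011), and Uqcc1 and Uqcc2 the 2 of 6 for complex III, by 0.70 ± 0.22 and 0.48 ± 0.13. Of 11 assembly factors and partners of the ATP synthase 6 rose, with Tmem70 at 0.75 ± 0.17, Fmc1 at 0.71 ± 0.17 and Atpaf1 at 0.70 ± 0.17. One fell: Atpif1, the inhibitor that blocks the enzyme's ATP hydrolysis, averaged 13.07, 13.09 and 12.88 at the 3 stages, a change of -0.21 ± 0.05 from E12.5 to E16.5 (limma adjusted p = 0.0018).

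Among 14 regulators of mitochondrial biogenesis 3 rose and 4 fell, with a median of 0.08, where 11.49% of all genes were called higher and 15.60% lower. Ppargc1a, the coactivator that drives mitochondrial gene expression in muscle, averaged 7.22, 7.85 and 11.01 at the 3 stages and rose by 3.16 ± 0.20 over E12.5. Esrrg, an estrogen-related receptor, rose by 1.36 ± 0.24 and Ppargc1b, a relative of Ppargc1a, by 0.90 ± 0.14. The transcripts of Nrf1 and Yy1, factors whose motifs were searched above, fell by 0.46 ± 0.09 and 0.47 ± 0.09 on the log2 scale. Gabpa, the subunit of GABP that binds DNA, changed by 0.06 ± 0.11 and did not pass the test (limma adjusted p = 0.79), and Gabpb1, its partner subunit that does not bind DNA, fell by 0.44 ± 0.15 on the log2 scale. Pprc1, another relative of Ppargc1a, fell by 0.76 ± 0.13 on the log2 scale. Tfam, the packaging and transcription factor of mitochondrial DNA, changed by 0.04 ± 0.17 and did not pass the test (limma adjusted p = 0.92).

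Outside the members, the 5 genes whose values followed the mean of the 34 most closely over the 24 arrays were Igfbp7 (Pearson r = 0.983), Acadl (0.979), Hspb6 (0.978), Art3 (0.978) and Pdk4 (0.978). These correlations describe arrays of 3 stages that differ in both measures, and carry no test. Pdk4, a kinase that restrains pyruvate dehydrogenase, averaged 5.61, 5.78 and 9.09 at the 3 stages. Hspb6, a small heat shock protein of muscle, averaged 7.20, 7.40 and 9.92.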

How the data were processed

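RNA from 24 samples was measured on 1 array each. Per the labels' protocols, PicoPure RNA was amplified (WT-Ovation Pico, SPIA) and labelled with biotin. What the authors deposited are log2 intensities, and the submitters' processing notes name Affymetrix Expression Console 1.1, RMA and R 2.9.2 without their roles. Log2 was read from the range of values, 2.56 to 14.1. RMA evens out array distributions, which hides any shift shared by all genes.

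Of 24200 probe sets, 20760 with 1 gene symbol were used, and the one with the highest mean stood for a gene. Stage means were fitted to all 24 arrays together with limma 3.58.1 (R 4.3.3; lmFit, eBayes) and compared pairwise, two-sided, with Benjamini-Hochberg adjustment over 19351 genes. The code was tested on simulated data. Tables and permutation tests used Python 3.11.15, pandas 2.3.3 and scipy 1.17.1, and figures matplotlib 3.10.9. The number of arrays limits the precision.

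Members and lists were chosen with earlier results of these data known. Named with values by array are the 8 largest called rises from E12.5 to E16.5 and the 5 largest called falls (0 existed), the 5 smallest p at the early step and the subunit c genes. From each pathway list the 3 largest called changes per direction are named. The other values by array (Sdha, Cycs, Atp5b and ranges of overlapping members), Tfam, Gabpa, Gabpb1 and the marker genes were chosen after their values were seen. Of 257 list entries, 12 had no match, among them the 3 mitochondrially encoded subunits listed, which were not analysed here. Alternatives covered scaling, probe set choice, dim genes, array weights and arrays left out.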

Additional observations from a re-analysis of the deposited data

Results flagged for a closer look

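In 102 groups of 8 arrays (34 genes by 3 stages), 4 had an end value farther from the rest than Dixon's critical value allows, and chance flags about 1 in 20 groups. Atp5j in E11.5 replicate 1 read 11.89, with the other 7 arrays at 12.13 to 12.28. Sdhd in the same array read 8.03, with the others at 8.39 to 8.71. Uqcr11 in E12.5 replicate 7 read 9.79, with the others at 10.15 to 10.46. Uqcrh in E16.5 replicate 8 read 12.85, with the others at 12.98 to 13.06. All 4 were the lowest values of their groups.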

How the results depend on the processing

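The count of members called higher from E12.5 to E16.5 was 30 to 34 and that against E11.5 31 to 34 under every alternative run, and the count from E11.5 to E12.5 was 0 under all of them. The median change from E12.5 to E16.5 moved to 0.55 without E16.5 replicates 1 to 4 and to 0.86 without replicates 5 to 8. Against E11.5 it moved to 0.61 and 0.99, and to 0.69 after a further quantile normalization; for that step the cause was not tested. Leaving out 1 array at a time gave medians of 0.69 to 0.74 from E12.5 to E16.5, 0.79 to 0.87 against E11.5 and 0.10 to 0.13 at the early step. The gain of Atp5g1 on Atp5g2 from E12.5 to E16.5 was 0.17, and on Atp5g3 0.053, with the second-brightest probe sets, a choice made after seeing the data, and Atp5g2 minus Atp5g3 then changed by -0.12. Against E11.5 the gain of Atp5g1 on Atp5g3 was 0.15 with them. Without E16.5 replicates 1 to 4, Atp5g2 minus Atp5g3 changed by -0.039 from E12.5 to E16.5 (adjusted exact p = 0.56). Atp5g2 from E11.5 to E12.5 ranged from -0.075 to 0.00024 with 1 array left out, positive without E11.5 replicate 5 and never called. With the replicate number as a block (replicate block), 34, 34 and 0 members were called higher, with medians of 0.72, 0.83 and 0.11; same-numbered arrays correlated at -0.28 to 0.09, so the numbers were not taken as pairs.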
